A study of Homo sapiens with 6 samples.

Results

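The 45 genes described here encode the enzymes and regulators that copy DNA and supply its building blocks. They were taken from the replication machinery and its S phase regulators by name, with earlier results of these data known. Each was looked up by its single platform symbol. All 45 were on the array, among 19775 genes with a single symbol, and all 45 were among the 11921 genes tested. HepG2 is a human hepatoblastoma cell line that divides in culture and keeps many hepatocyte functions. One arm carried a control siRNA, siControl, and the other, siHNF4a, an siRNA that targets the liver nuclear receptor HNF4A, and TGF-beta, a secreted growth factor, was added to both. The 6 groups were siControl and siHNF4a at 0 h, with no TGF-beta, and each of them at 1.5 h and at 24 h with 3 ng/ml of TGF-beta. Each group's total RNA was read on 1 Affymetrix array, with no replicate in any group. Nothing in the labels tells if an arm's arrays stem from 1 transfection, and each arm has a single siRNA label. Every array beyond 0 h had received TGF-beta, so TGF-beta and time in culture cannot be told apart.

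Replication starts at origins, where the origin recognition complex, CDC6 and CDT1 load the ring-shaped MCM helicase onto DNA in a step called licensing. Kinases, CDC45 and the GINS complex then turn the loaded ring into a moving helicase, and the polymerases follow it with the sliding clamp PCNA, which a clamp loader places on DNA. Many of these genes share transcription factors of the E2F family and are transcribed as cells pass from G1 into S phase, and their transcripts are low in resting hepatocytes.

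Values are MAS5 signals, a scaled brightness for a set of probes, and differences are on the log2 scale with the standard error that limma gives. Signals of the 45 genes ran from 25.9 to 4059.8, and none lay below the floor of 12.9, the median of all signals, on any array. The array medians were 12.4 to 13.3, and 49.1% to 50.7% of an array's probe sets lay above the floor. Correlations between arrays were 0.944 to 0.986. The siControl 0 h array stood apart in 1 control probe set for the 5' end of an 18S ribosomal RNA, at 8599.7 against 69.8 to 736.5 on the other arrays. The summed signal of 7 hepatocyte markers was 43308.5 to 51021.9, with all 7 above the floor. Of 4 endothelial and 5 fibroblast markers 1 each had a mean above the floor, with summed signals of 55.1 to 140.4 and 37.8 to 98.7, namely PECAM1 and PDGFRB, and CDH5, VWF and KDR lay below it. Of 4 blood markers 3 did, with a sum of 2257.2 to 3031.6 carried almost wholly by the lysozyme gene LYZ, while the leukocyte marker PTPRC did not exceed 10.0. The blood marker CD14, at 13.9 to 100.3, was higher at 24 h by 1.39 ± 0.35 (limma adjusted p = 0.0156), and the endothelial marker PECAM1, at 47 to 127, was so by 1.01 ± 0.27 (limma adjusted p = 0.0221). CD14 was also lower with the siRNA, by 1.18 ± 0.29 (limma adjusted p = 0.0206). Among the hepatocyte markers SERPINA1 rose at 24 h by 0.34 ± 0.09 (limma adjusted p = 0.0183), and TTR fell at 24 h by 0.54 ± 0.14 (limma adjusted p = 0.0184) and with the siRNA by 0.52 ± 0.12 (limma adjusted p = 0.0114). The part of these markers in the results was not tested.

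After 24 h with TGF-beta 39 of the 45 genes had fallen, 1 (RFC5, on the probe set used here) had risen and 5 did not pass, in limma with Benjamini-Hochberg adjustment over all genes tested and a threshold of 0.05. Among all 11921 genes 7.82% fell and 7.22% rose in that comparison. The median difference of the 45 genes was -1.22, against -0.03 over all genes tested. On 43 of the 45 both 24 h arrays lay below all 4 earlier arrays, an order that 18.1% of all genes had, and on RFC5 both lay above, as in 15.7% of all genes. The remaining gene, RFC1, was mixed. In a culture measured as a whole, fewer cells of a type, such as cells in S phase, and less RNA per cell cannot be told apart. With the siRNA and time as terms and 2 residual degrees of freedom, the p-values measure how far a difference repeated between the arms, with spread borrowed from other genes. With the siControl 0 h array left out 36 of the 45 passed, and with no filter on dim genes, which left 0.63 prior degrees of freedom, none did.

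**Figure D1:**
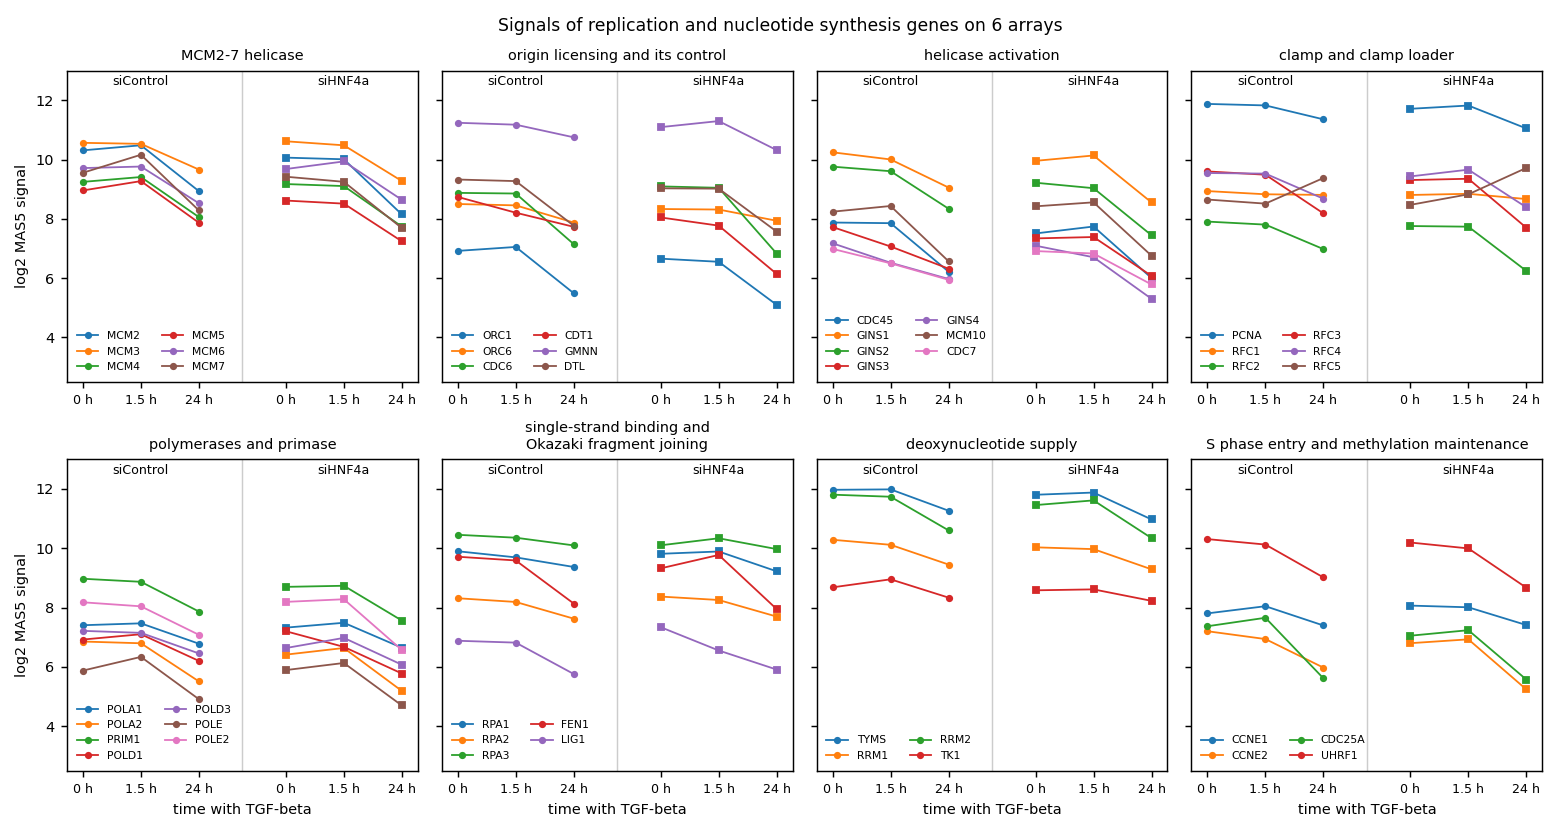
Log2 MAS5 signals of the 45 genes on the 6 arrays, in 8 panels by role, with time with TGF-beta on the x axis. Circles are the siControl arrays and squares the siHNF4a arrays, 1 array per point. Lines are flat or mixed between 0 and 1.5 h and run down to 24 h for all genes but RFC5, and RFC1 is nearly level.

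Promoters were available in a RefSeq table (GRCh38.p14, 250 bases before to 50 bases after each gene's start) for 38 of the 45 genes. The genes without one were MCM4, MCM5, GINS4, POLD3, RPA2, RPA3 and CCNE2. Some genes have several promoters there, 50 for the 38 genes, and a gene was counted where any of them matched. On either strand, 22 of the 38 genes (57.9%) held 1 of 4 words that fit the E2F binding motif, TTTGGCGC, TTTCGCGC, TTTCCCGC or TTTGCCGC. Counted in the same way, the share was 3.99% of all 27305 genes in the table and 6.45% of 9736 genes tested that had a promoter there, and 3.31% of all 35116 single promoters held a word. The E2F words TTTGGCGC and TTTCGCGC can overlap on opposite strands, and a match is a description of letters, not of a bound site. The word CCAAT, read by the factor NF-Y, stood in 24 of 38 (63.2%), against 43.5% of genes tested, 39.7% of all genes in the table and 34.6% of single promoters. TTTGAA, the cell cycle homology word, stood in 1 of 38, that of RRM1, against 14.0% of genes tested, 18.2% of all genes in the table and 15.2% of single promoters. The following stretches are shown as examples with the word upstream of the start, from genes with 24 h differences of -1.62 (CDC25A) to -0.59 (PCNA). In CDC6 and MCM2, the genes with larger differences that also held it, it stood after the start, and they are not shown. Capitals mark the E2F words, bases run 5' to 3' on the gene's strand, and each stretch ends just before the start, except that of MCM6, which ends at base -51. The stretch of MCM6 is chr2:135876494-135876613 (minus strand), that of DTL chr1:212035628-212035747 (plus strand), that of CDT1 chr16:88803669-88803788 (plus strand) and that of GINS2 chr16:85688955-85689074 (minus strand). The stretch of RFC3 is chr13:33818029-33818148 (plus strand), that of CDC25A chr3:48188418-48188537 (minus strand), that of PCNA chr20:5126623-5126742 (minus strand) and that of TYMS chr18:657533-657652 (plus strand).
MCM6: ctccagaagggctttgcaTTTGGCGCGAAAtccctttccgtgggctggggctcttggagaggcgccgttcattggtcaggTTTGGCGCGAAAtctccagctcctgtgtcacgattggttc
DTL: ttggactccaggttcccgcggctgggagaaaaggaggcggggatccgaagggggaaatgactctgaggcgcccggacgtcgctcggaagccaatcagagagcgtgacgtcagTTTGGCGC
CDT1: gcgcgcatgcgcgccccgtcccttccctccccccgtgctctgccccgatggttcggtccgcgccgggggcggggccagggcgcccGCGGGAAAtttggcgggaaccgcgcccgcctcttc
GINS2: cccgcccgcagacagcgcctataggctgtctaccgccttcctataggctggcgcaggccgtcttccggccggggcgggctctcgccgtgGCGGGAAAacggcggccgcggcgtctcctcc
RFC3: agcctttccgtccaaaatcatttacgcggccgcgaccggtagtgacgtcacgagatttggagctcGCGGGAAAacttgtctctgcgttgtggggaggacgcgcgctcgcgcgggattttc
CDC25A: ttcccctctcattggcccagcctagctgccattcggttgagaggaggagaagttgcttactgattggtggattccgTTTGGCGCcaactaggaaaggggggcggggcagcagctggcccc
PCNA: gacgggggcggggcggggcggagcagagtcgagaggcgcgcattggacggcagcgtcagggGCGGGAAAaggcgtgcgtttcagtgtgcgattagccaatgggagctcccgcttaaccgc
TYMS: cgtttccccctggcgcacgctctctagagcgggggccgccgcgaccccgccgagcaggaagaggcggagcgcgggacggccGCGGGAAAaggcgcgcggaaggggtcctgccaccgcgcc
MCM6 held 4 words in 2 overlapping pairs, starting at -152, -148, -90 and -86, and each of the other stretches held 1. In 5 of these stretches the word was TTTCCCGC, read on the strand opposite the gene. It began at -31 in GINS2, at -35 in CDT1, at -39 in TYMS, at -55 in RFC3 and at -59 in PCNA, and the 24 h differences of these genes were -1.60, -1.46, -0.77, -1.51 and -0.59. The median 24 h difference was -1.31 over the 22 genes with an E2F word and -1.01 over the 16 without. For the NF-Y word the order was the opposite, with -1.12 over the 24 genes with it and -1.28 over the 14 without. Neither difference was tested.

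The MCM2-7 ring, the helicase that unwinds DNA at the fork, fell in all 6 of its subunits, with a median of -1.27. MCM2 had signals of 1269.5, 1429 and 489 in siControl and 1071, 1030.2 and 283 in siHNF4a cells, in the order 0, 1.5 and 24 h that all signals below follow. Its 24 h arrays were the lowest in each arm, at 38.5% and 26.5% of the 0 h signal, and it fell by 1.65 ± 0.14 (limma adjusted p = 5.75e-06) on average. MCM7 read 752, 1145 and 311 in siControl and 685, 608 and 206 in siHNF4a cells, and its highest signal was that of siControl at 1.5 h. It fell by 1.50 ± 0.17 (limma adjusted p = 4.8e-05) from 0 to 24 h. MCM4 was at 607, 680.3 and 266 in siControl and 577, 551 and 214 in siHNF4a cells and fell by 1.31 ± 0.15. Its 3 other probe sets above the floor had 24 h differences of -1.32, -1.21 and -1.74. MCM6 had the smallest difference of the ring, -1.11 ± 0.13 (limma adjusted p = 6.91e-05), from signals of 838, 869 and 368 in siControl and 820.3, 979.8 and 399 in siHNF4a cells. MCM5 and MCM3 fell as well, with differences of -1.23 ± 0.16 and -1.12 ± 0.13. No 24 h signal of a ring subunit reached any of its 4 earlier signals.

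Of the licensing factors and their control all 6 fell, with a median of -1.48. CDC6, the ATPase that helps to load the MCM ring, had signals of 469.6, 462 and 142 in siControl and 546, 529 and 114 in siHNF4a cells. Both 24 h arrays kept 30.2% and 20.8% of their arm's 0 h signal, and the fall of 2.0 ± 0.17 (limma adjusted p = 5.75e-06) was the largest of the 45 genes on average. ORC1, the large ATPase subunit of the origin recognition complex, read 121, 133 and 44.9 in siControl and 101, 93.7 and 34.2 in siHNF4a cells and fell by 1.49 ± 0.23 (limma adjusted p = 0.000619). ORC6, another subunit, read 362, 351 and 235 in siControl and 322, 318 and 245 in siHNF4a cells. Its fall of 0.51 ± 0.16 (limma adjusted p = 0.044) was the smallest that passed, and with the siControl 0 h array left out it was -0.45 and missed the threshold. CDT1, the partner of CDC6 in loading, was at 427, 295 and 212 in siControl and 264, 218 and 70.5 in siHNF4a cells, with every siHNF4a signal below the siControl signal of its time. It fell by 1.46 ± 0.23 (limma adjusted p = 0.000752) over both arms. DTL, the adaptor that sends CDT1 to degradation during S phase, read 642, 618 and 218 in siControl and 522, 518 and 189.8 in siHNF4a cells and fell by 1.51 ± 0.15 (limma adjusted p = 1.51e-05). GMNN, geminin, which binds CDT1 and blocks relicensing, had signals of 1277 to 2518 and fell by 0.63 ± 0.13 (limma adjusted p = 0.00397). In each of the 6 licensing genes both 24 h arrays were the lowest, so the loaders CDC6 and CDT1 and the inhibitors of relicensing, DTL and GMNN, were lower together.

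The factors that turn the loaded ring into an active helicase fell in 7 of 7 cases, with a median of -1.50 and a narrow range from -1.67 to -1.09. MCM10, needed to start unwinding, read 302, 346 and 94.8 in siControl and 343, 376 and 108 in siHNF4a cells. Its 24 h signals were about equally low in both arms, with arm differences of -1.67 and -1.67 and an average of -1.67 ± 0.17 (limma adjusted p = 2.05e-05). GINS2, a subunit of the GINS complex that binds CDC45 and the ring, read 867, 779.5 and 324 in siControl and 595, 524 and 174 in siHNF4a cells. It fell by 1.60 ± 0.15 (limma adjusted p = 1.11e-05), and the siHNF4a signals lay below those of siControl at every time. CDC45, which the active helicase also needs, read 235, 231 and 74.4 in siControl and 182, 214 and 64.1 in siHNF4a cells and fell by 1.58 ± 0.20 (limma adjusted p = 9.21e-05). The other GINS genes fell too, with differences of -1.30 ± 0.15 for GINS1, -1.33 ± 0.22 for GINS3 and -1.50 ± 0.25 for GINS4. Between single arrays GINS4 was already lower at 1.5 h than at 0 h in both arms, with -0.66 in siControl and -0.39 in siHNF4a cells. GINS3 was so in siControl cells alone, with -0.66 and 0.05. CDC7, the kinase that fires licensed origins, had the smallest difference of the group, -1.09 ± 0.23 (limma adjusted p = 0.00561), and signals of 127, 90.4 and 61.5 in siControl and 120.4, 114 and 55.1 in siHNF4a cells. In all 7 the 24 h signals of both arms lay below every earlier signal.

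Among the clamp and its loader 4 of 6 fell, 1 rose and 1 did not pass, with a median of -0.77. PCNA, the sliding clamp, read 3761, 3631 and 2622 in siControl and 3356, 3623 and 2119 in siHNF4a cells. It kept 69.7% and 63.1% of the 0 h signal and fell by 0.59 ± 0.11 (limma adjusted p = 0.00178). At 24 h each arm was at its lowest. The loader RFC is built from a large subunit, RFC1, and small subunits, RFC2 to RFC5. RFC3 read 776, 718 and 291 in siControl and 634, 653 and 208 in siHNF4a cells and fell by 1.51 ± 0.15 (limma adjusted p = 1.51e-05). RFC2 read 239.9, 224 and 126 in siControl and 216, 213 and 75.7 in siHNF4a cells. Its difference of -1.22 ± 0.21 was -0.93 in siControl and -1.51 in siHNF4a cells, against -0.87 and -0.83 on its second probe set. RFC4 fell by 0.95 ± 0.14. RFC1 was nearly level at 489.7, 454 and 448 in siControl and 447, 459.5 and 406 in siHNF4a cells, with a difference of -0.13 ± 0.14 (limma adjusted p = 0.601), and its second probe set had -0.43 ± 0.15 (limma adjusted p = 0.0815).

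RFC5 is the exception to the direction, and its probe sets disagree. The probe set with the highest mean, which stands for the gene here, read 402, 365 and 664 in siControl and 355, 454 and 842 in siHNF4a cells and rose by 0.99 ± 0.16 (limma adjusted p = 0.000789). Both of its 24 h signals lay above all 4 earlier ones. A second probe set read 424, 427 and 225 in siControl and 363, 371 and 162 in siHNF4a cells, a difference of -1.04 ± 0.16 (limma adjusted p = 0.000236), and the remaining one read 272, 215 and 101 in siControl and 209.9, 187 and 79.9 in siHNF4a cells, a difference of -1.41. Both of these had their lowest signals at 24 h in each arm. WSB2, the gene next to RFC5 in the RefSeq gene table, read 847, 898 and 1448 in siControl and 879, 954 and 1669.8 in siHNF4a cells and rose by 0.85 ± 0.12 (limma adjusted p = 0.000274). Whether the first RFC5 probe set reads a transcript of RFC5 was not tested. WSB2 was looked at after the RFC5 values were seen.

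**Figure D2:**
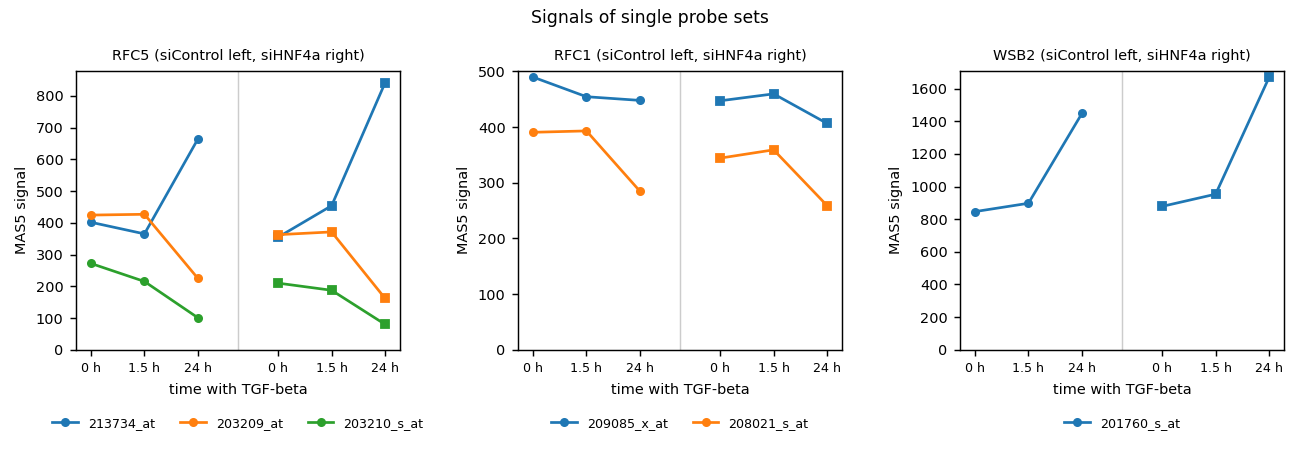
MAS5 signals of the probe sets above the floor for RFC5, RFC1 and WSB2 on the 6 arrays, with circles for siControl and squares for siHNF4a. The RFC5 probe set with the highest mean and that of WSB2 are highest at 24 h, and the other RFC5 and RFC1 probe sets are lowest there.

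Of the 45 genes 26 had several probe sets, and 23 of these had another above the floor. Among 31 such other probe sets 30 were lower at 24 h and 1, a dim one of RPA1, was not, at 0.07. With the second probe set of each gene 17 of 23 fell and none rose, where 5.09% of 5987 genes fell. Those 23 are the genes with a second signal, not a sample of the 45. CDC6 differed by -1.89 on its second probe set, TYMS by -1.08 and RRM2 by -1.03. The second probe sets of GINS2 (-0.81, limma adjusted p = 0.181), GINS4 (-0.55, limma adjusted p = 0.357), POLA2 (-0.38, limma adjusted p = 0.561) and RPA1 (-0.37, limma adjusted p = 0.125) were lower and did not pass, so these 4 calls at 24 h rest on the probe set used. Those of RFC1 and TK1 did not pass either.

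The polymerases and primase fell in 6 of 7 cases, with a median of -1.08. POLE2, the second subunit of the leading strand polymerase epsilon, read 289, 263 and 135 in siControl and 292, 311 and 94.8 in siHNF4a cells and fell by 1.36 ± 0.20 (limma adjusted p = 0.000371). POLA2, a subunit of polymerase alpha, which starts new strands, read 116, 111 and 45.5 in siControl and 85.1, 99.4 and 36.4 in siHNF4a cells. It fell by 1.29 ± 0.24 (limma adjusted p = 0.00223), while its dim second probe set had -0.38 and did not pass. PRIM1, the catalytic primase, read 502, 467 and 233 in siControl and 415, 426 and 189 in siHNF4a cells and had nearly the same difference in both arms, -1.11 and -1.14. The catalytic subunit of polymerase alpha, POLA1, had the smallest difference of the group, -0.65 ± 0.19 (limma adjusted p = 0.0348), with signals of 169, 177 and 109.9 in siControl and 160.0, 179 and 100.0 in siHNF4a cells. With the siControl 0 h array left out it missed the threshold. POLE and POLD1, the catalytic subunits of polymerases epsilon and delta, fell too, with differences of -1.08 ± 0.27 and -1.07 ± 0.24. The signals of POLE, at 25.9 to 80.7, were the nearest to the floor. POLD3, an accessory subunit of polymerase delta, read 148, 142 and 87.5 in siControl and 99.3, 126 and 67.2 in siHNF4a cells. Its difference of -0.66 ± 0.22 (limma adjusted p = 0.0553) did not pass, though both 24 h signals were below the 4 earlier ones, as they were for the other 6 genes of the group.

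Of the single-strand binding and Okazaki fragment genes 4 of 5 fell, with a median of -0.68. FEN1, the nuclease that trims Okazaki fragments, read 839.9, 770.1 and 281 in siControl and 640.4, 876 and 247 in siHNF4a cells and fell by 1.48 ± 0.16 (limma adjusted p = 2.74e-05). LIG1, the ligase that seals them, read 118, 113 and 54.1 in siControl and 162, 93.8 and 60 in siHNF4a cells, and its siHNF4a signal at 1.5 h was closer to the 24 h signal than to that at 0 h. It fell by 1.28 ± 0.24 (limma adjusted p = 0.00249). The RPA trimer coats single-stranded DNA, also in repair. RPA2 read 318, 292 and 197 in siControl and 331, 305 and 207 in siHNF4a cells and fell by 0.68 ± 0.16 (limma adjusted p = 0.0104). RPA1 fell by 0.56 ± 0.13 (limma adjusted p = 0.0108). Leaving out the siControl 0 h array ended both calls. RPA3 read 1403, 1311 and 1095 in siControl and 1098, 1293 and 1005 in siHNF4a cells and had a difference of -0.24 ± 0.12 (limma adjusted p = 0.222). The siHNF4a signal at 0 h was close to the siControl signal at 24 h.

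For the supply of deoxynucleotides 3 of 4 genes fell, with a median of -0.78. RRM2, the S phase subunit of ribonucleotide reductase, read 3587, 3418 and 1557 in siControl and 2813, 3138 and 1299 in siHNF4a cells. At 24 h it kept 43.4% and 46.2% of the 0 h signal, and it fell by 1.16 ± 0.11 (limma adjusted p = 1.02e-05). RRM1, the large subunit, read 1249, 1110.5 and 699.8 in siControl and 1047, 1004 and 626 in siHNF4a cells and fell by 0.79 ± 0.12 (limma adjusted p = 0.000579). TYMS, thymidylate synthase, read 4019.6, 4059.8 and 2466 in siControl and 3580.0, 3770.1 and 2009.9 in siHNF4a cells and fell by 0.77 ± 0.10 (limma adjusted p = 0.000158). TK1, the salvage thymidine kinase, read 411, 495 and 323 in siControl and 383, 392 and 299 in siHNF4a cells. Both of its 24 h signals were the lowest of their arm, but the difference of -0.35 ± 0.15 (limma adjusted p = 0.147) did not pass, nor did that of its second probe set, -0.34 (limma adjusted p = 0.223).

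Of the genes for S phase entry and for maintenance of methylation 3 of 4 fell, with a median of -1.40. CDC25A, the phosphatase that activates CDK2, read 165, 202 and 48.9 in siControl and 132, 151 and 47.5 in siHNF4a cells. Its 24 h signals were alike in both arms on this probe set, and it fell by 1.62 ± 0.22 (limma adjusted p = 0.000186). The second probe set of CDC25A had 24 h signals of 41.6 in siControl and 17.7 in siHNF4a cells, and the third 24.4 and 21.0. UHRF1, which brings DNA methyltransferase to newly copied DNA, read 1269, 1117 and 518 in siControl and 1172, 1020.4 and 407 in siHNF4a cells and fell by 1.41 ± 0.13 (limma adjusted p = 9.28e-06). CCNE2, cyclin E2, read 147, 122 and 62.8 in siControl and 111, 122 and 37.7 in siHNF4a cells and fell by 1.39 ± 0.24 (limma adjusted p = 0.00135). Its relative CCNE1, cyclin E1, read 223, 264 and 168 in siControl and 268, 258 and 170.0 in siHNF4a cells and had a smaller difference of -0.53 ± 0.18 (limma adjusted p = 0.0563), just short of the threshold. It passed without the 1.5 h pair of arrays (-0.53, limma adjusted p = 0.0489). The difference between the 2 cyclins was not tested.

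**Figure D3:**
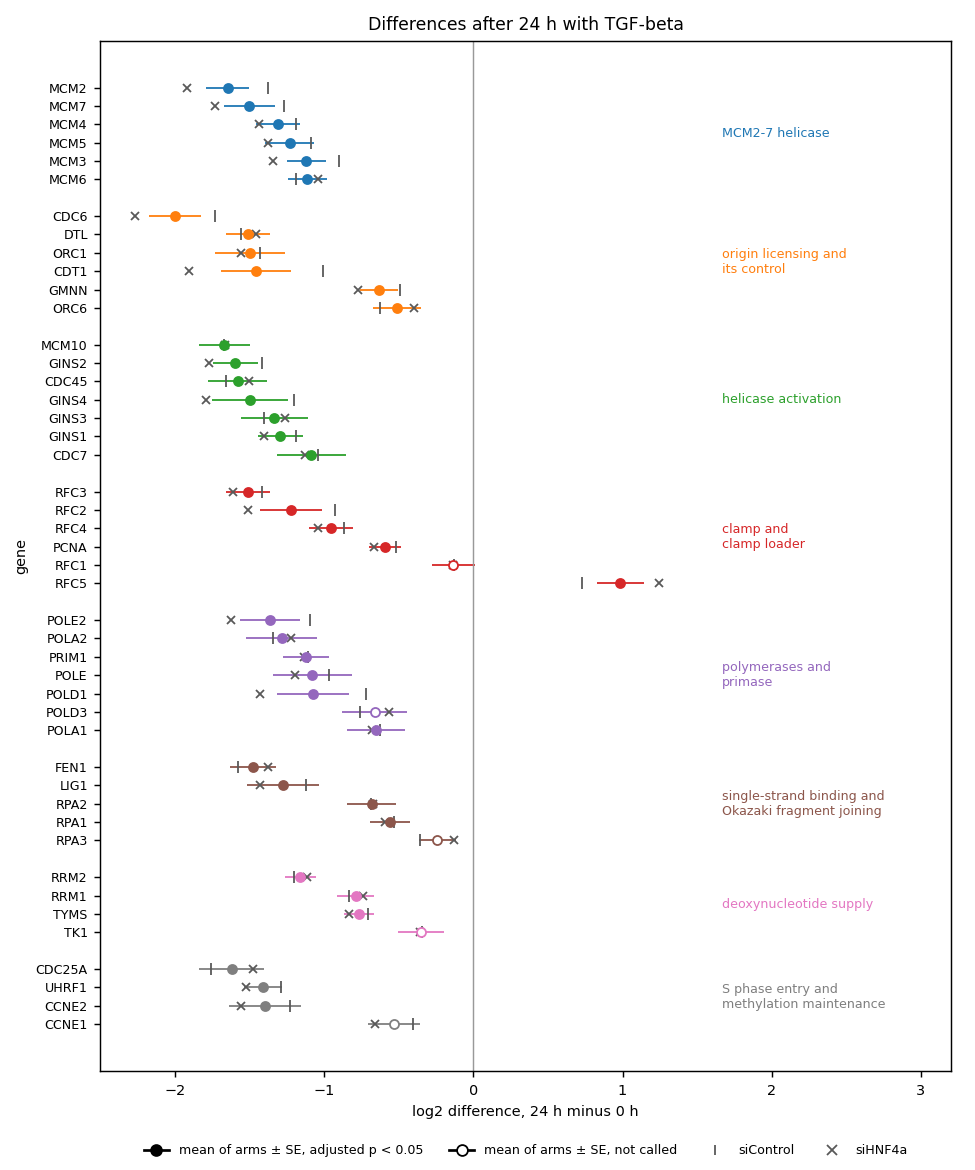
Log2 difference at 24 h against 0 h for each of the 45 genes, grouped by role. Points are the average of both arms with limma's standard error, filled where the adjusted p was under 0.05, bars are the siControl arm and crosses the siHNF4a arm, 1 array at each time. All points but RFC5 lie below 0, from -2.0 for CDC6 to -0.13 for RFC1.

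At 1.5 h no such shift was called. None of the 45 genes passed at 1.5 h in limma, against 0.0168% of all genes that fell and 0.0839% that rose. None had an unadjusted p under 0.05, where 364 (3.05%) of all genes did. The median difference was 0.01, and the range ran from -0.52 for GINS4 to 0.35 for POLE. With 1.5 h in place of 0 h as the reference, 41 of the 45 fell to 24 h (7.01% of all genes) and RFC5 rose. ORC6 no longer passed, and CCNE1, POLD3 and TK1 passed, at -0.62, -0.80 and -0.50. The comparisons share the 24 h arrays.

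Each arm by itself had most of the 45 genes lower by at least 2-fold between single arrays, with no replicate. The 24 h differences above are the averages of these arm differences, so the counts by arm are not separate evidence. In siControl cells 26 of the 45 were lower at 24 h by at least 2-fold, where 2.6% of all genes were, and none was higher (3.11%). In siHNF4a cells 31 were lower (4.61%) and RFC5 was higher (4.5%). The median was -1.10 in siControl and -1.34 in siHNF4a cells. The larger siHNF4a differences were those of CDC6 (-1.73 and -2.27), MCM2 (-1.38 and -1.92) and CDT1 (-1.01 and -1.91). On the second probe sets CDC6 kept this order, with -1.71 and -2.07, and CDT1 did not, with -1.84 and -1.48. CDC25A had the opposite order, with -1.76 and -1.48. Across the 45 genes the arm differences had a Pearson r of 0.88, and 0.83 over 44 genes without RFC5, against 0.59 over all genes tested. No signal of the 45 genes was under 25.9, while a gene tested needed only a mean above 12.9. The part of signal level in these r values was not tested. Genes of 1 array share its scaling and are not independent replicates. The log2 of the mean signal and the 24 h difference had an r of 0.23 across the 45 genes, RFC5 included.

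**Figure D4:**
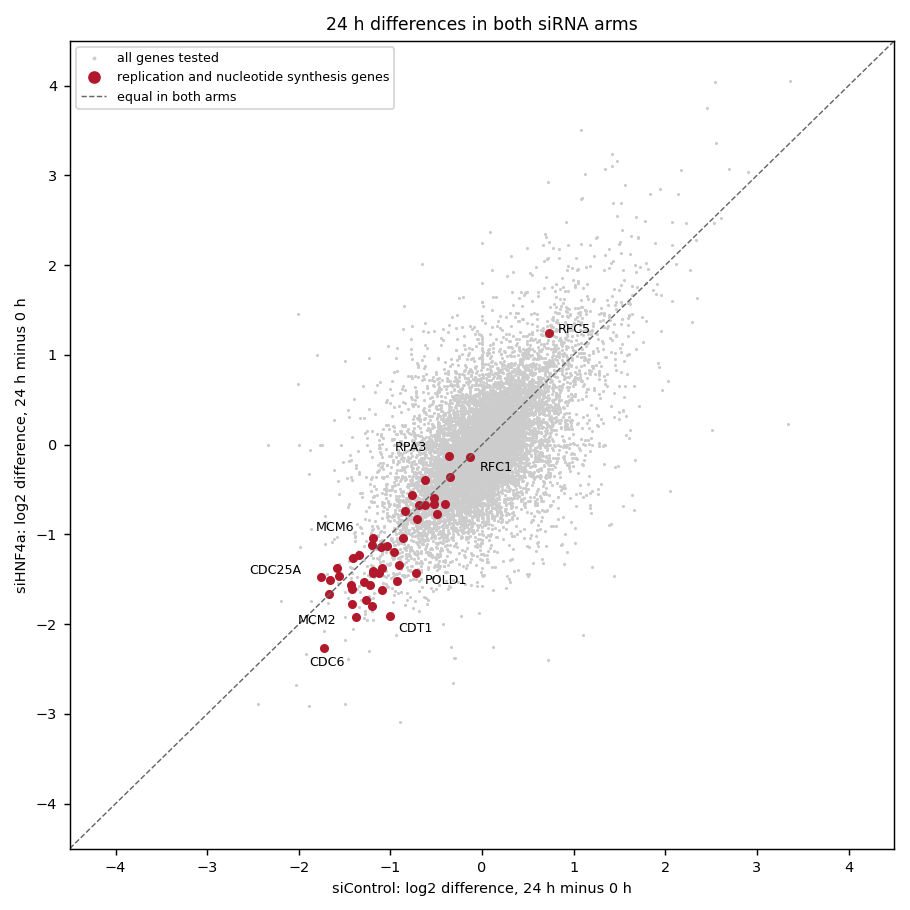
Log2 difference at 24 h against 0 h in siControl (x axis) and siHNF4a cells (y axis), each between 2 single arrays. Red points are the 45 genes, grey points all 11921 genes tested, and the dashed line marks equal differences. The red points lie at the lower left, 30 of 45 of them below the line, with RFC5 at the upper right.

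For 30 of the 45 genes the 24 h difference was lower in siHNF4a than in siControl cells, an order that 52.6% of all genes had. In a fit with a term for how far the siRNA difference at 24 h departed from the mean of the earlier times, none of the 45 passed in limma, and 0% of all genes did in either direction. The median of that term was -0.11, against -0.01 over all genes. Of the 45, 1 (2.22%) had an unadjusted p under 0.05, against 541 (4.54%) of all genes. The gene of the 45 was CDT1, at -1.03 ± 0.32 (limma adjusted p = 0.999, as for the other members). GINS4 (-0.72 ± 0.40), POLE2 (-0.64 ± 0.32), RFC2 (-0.63 ± 0.33) and CCNE2 (-0.53 ± 0.41) came next. On second probe sets the difference from 0 to 24 h was not lower in siHNF4a cells for CDT1 and RFC2. It was -1.84 in siControl and -1.48 in siHNF4a cells for CDT1, and -0.87 and -0.83 for RFC2. For GINS4 (-0.27 and -0.82, a dim probe set) and CCNE2 (-0.81 and -1.59) it was lower in siHNF4a cells. GINS4 had signals of 144, 91.6 and 62.7 in siControl and 136, 104 and 39.4 in siHNF4a cells, with its lowest in siHNF4a at 24 h. The highest values, on the probe sets used here, were those of CDC25A (0.33 ± 0.38) and RFC5 (0.27 ± 0.29), followed by ORC6 at 0.21. On the second probe set of CDC25A the difference from 0 to 24 h was lower in siHNF4a cells (-2.09) than in siControl cells (-1.75). On simulated data this fit, with 1 residual degree of freedom, recovered 31% of 2-fold and 88% of 4-fold differences. It made 10 and 23 false calls there.

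With the siRNA few of the 45 genes were called lower, and these calls changed with the processing. Over the 3 times 5 of the 45 fell with siHNF4a and none rose, in limma with time as a term, against 4.16% of all genes that fell and 3.9% that rose. They were 3 subunits of the MCM ring, the licensing factor CDT1 and the GINS subunit GINS2. The other 3 ring subunits, 5 licensing genes and 6 helicase activation genes did not pass. The median siRNA difference of the 45 was -0.19, against -0.04 over all genes, and 8 (17.8%) had an unadjusted p under 0.05, as had 21.4% of all genes. In 23 of the 45 siHNF4a lay below siControl at all 3 times, a share of 51.1% against 23.7% of all genes, and in MCM10 and RPA2 it lay above (17.5%). GINS2 fell by 0.67 ± 0.12 (limma adjusted p = 0.00351), with single-array differences of -0.54 at 0 h, -0.57 at 1.5 h and -0.90 at 24 h. MCM5 had signals of 497, 618 and 234 in siControl and 392, 365 and 151 in siHNF4a cells, and each siHNF4a signal was the lower of its pair. It fell by 0.58 ± 0.13 (limma adjusted p = 0.0142). MCM2 fell by 0.50 ± 0.12 (limma adjusted p = 0.0158) and MCM7 by 0.55 ± 0.14 (limma adjusted p = 0.0249). MCM7 differed by -0.13 at 0 h, -0.91 at 1.5 h and -0.59 at 24 h, so that its largest gap was the 1.5 h pair, where siControl was highest. CDT1 fell by 0.91 ± 0.19 (limma adjusted p = 0.00843), with -0.69 at 0 h, -0.44 at 1.5 h and -1.59 at 24 h. It was the only gene of the 45 that differed by 2-fold between the 24 h arrays (3.05% of all genes were lower and 2.23% higher). At 0 h and 1.5 h none of the 45 did, where 1.63% and 3.26% of all genes were lower and 1.47% and 1.54% higher. The second probe set of CDT1 read 119, 194 and 33.1 in siControl and 114, 78.5 and 40.8 in siHNF4a cells, with siHNF4a the higher at 24 h, and a siRNA difference of -0.35 that did not pass. The largest differences upward did not pass, with 0.16 ± 0.14 (limma adjusted p = 0.555) for MCM10, 0.16 ± 0.13 (limma adjusted p = 0.541) for RFC5 and 0.11 ± 0.20 (limma adjusted p = 0.806) for LIG1.

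None of the 5 siRNA calls passed without the 24 h pair of arrays, at -0.36 for MCM2, -0.55 for MCM5, -0.52 for MCM7, -0.56 for CDT1 and -0.56 for GINS2. With no intensity trend in limma none passed either, nor did any with the mean of each gene's probe sets (-0.63 for CDT1 to -0.40 for GINS2, limma adjusted p = 0.0765 to 0.153 over the 5). GINS2 turned to 0.10 (limma adjusted p = 0.903) on its dim second probe set. Without the 1.5 h pair CDT1 and GINS2 passed and MCM2 (-0.52), MCM5 (-0.48) and MCM7 (-0.36) did not. RRM2 differed by -0.24 ± 0.09 (limma adjusted p = 0.105) on the probe set used here and by -0.61 (limma adjusted p = 0.000424) on its second. It also passed with quantile normalization (-0.30, limma adjusted p = 0.0313), so its call changes with the probe set and with the scaling. On their second probe sets MCM5 (-0.58, limma adjusted p = 0.0505) and MCM7 (-0.44, limma adjusted p = 0.0519) were just short of the threshold. An siRNA can lower transcripts other than its target, which 1 siRNA label per arm does not separate.

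**Figure D5:**
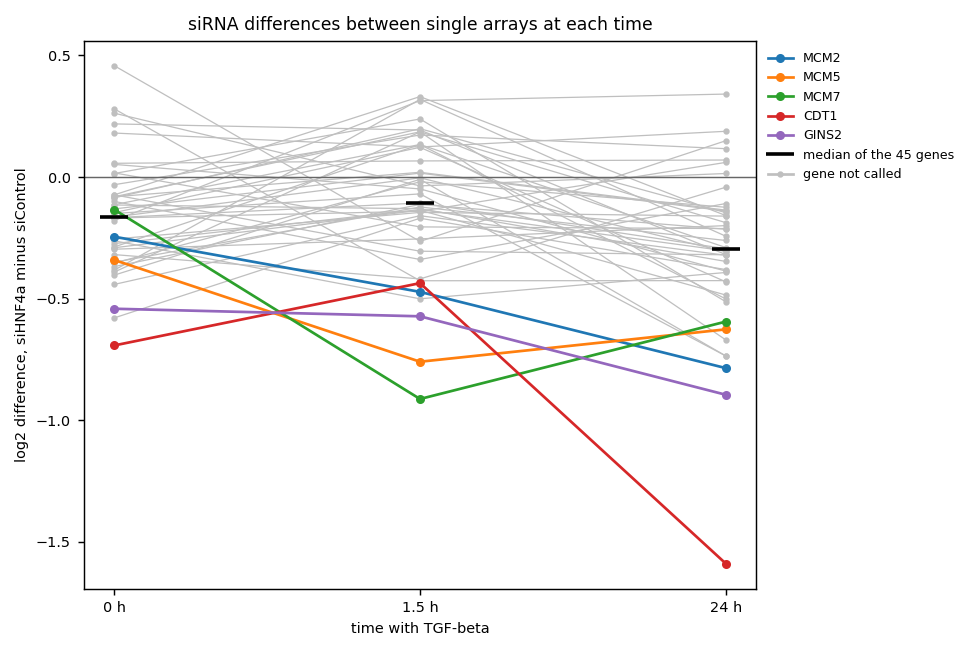
Log2 difference between the siHNF4a and siControl arrays at each time with TGF-beta, 1 array per arm and time, for the 45 genes. Coloured lines are the 5 genes called over the 3 times, grey lines the others, and black bars the medians of -0.16, -0.11 and -0.29. CDT1 reaches -1.59 at 24 h.

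Other genes of the pathways gave the same direction at 24 h where they passed. Of 72 further genes of the replisome, of chromatin assembly behind the fork and of nucleotide synthesis, 68 were tested. In limma 32 fell, none rose and 36 did not pass, with a median of -0.56, where 7.82% of all genes tested fell, 7.22% rose and the median was -0.03. Replication-coupled chromatin genes fell in 9 of 9 cases, led by the histone chaperone ASF1B with -1.57 ± 0.20 (limma adjusted p = 0.000128). The chromatin assembly subunits CHAF1B and CHAF1A had -1.56 ± 0.27 and -1.05 ± 0.21. Other replisome genes fell in 14 of 30. TICRR, which helps to fire origins, had a difference of -1.92 or lower, since both 24 h signals, 11.4 and 4.5, were below the floor. DSCC1, of an alternative clamp loader, had -1.68 ± 0.21 (limma adjusted p = 9e-05), and WDHD1, which ties polymerase alpha to the helicase, had -1.39 ± 0.25. POLD4, the small subunit of polymerase delta, stood at the other end with 1.04 ± 0.34 (limma adjusted p = 0.052), which did not pass. Other nucleotide synthesis genes fell in 9 of 29, led by the deoxycytidine kinase DCK with -1.02 ± 0.16 (limma adjusted p = 0.000587). The thymidylate kinase DTYMK had -0.81 ± 0.14 and the CTP synthase CTPS1 -0.72 ± 0.15.

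With the siRNA 4 of these 68 fell and 2 rose, against 4.16% and 3.9% of all genes tested, so both counts lay close to the background. RNASEH2C, a subunit of ribonuclease H2, read 308, 348 and 316 in siControl and 185, 208 and 151 in siHNF4a cells and fell by 0.85 ± 0.14 (limma adjusted p = 0.00187). All 3 of its siHNF4a signals lay below all 3 siControl signals. CDK2, the kinase partner of cyclin E, fell by 0.74 ± 0.14 (limma adjusted p = 0.0037), ASF1B by 0.68 ± 0.16 and the mitochondrial deoxyguanosine kinase DGUOK by 0.50 ± 0.10. PRPS1, which makes the ribose precursor of all nucleotides, read 507, 416 and 367 in siControl and 772, 776 and 558 in siHNF4a cells and rose by 0.70 ± 0.12 (limma adjusted p = 0.00175). MTHFD2, a mitochondrial folate enzyme, read 1446, 1306 and 1311 in siControl and 2051, 2391 and 2159.5 in siHNF4a cells and rose by 0.70 ± 0.10 (limma adjusted p = 0.000412). Both stood higher in every siHNF4a array than in every siControl array. Both are from the nucleotide synthesis list, as is DGUOK, which fell. At 24 h PRPS1 fell by 0.47 ± 0.14 (limma adjusted p = 0.0391), and MTHFD2 had -0.03 ± 0.12.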

How the data were processed

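Expression was measured on 6 Affymetrix arrays, 1 per combination of siRNA and time. The deposited signal is a linear intensity per probe set, for which the submitters' processing notes name MAS5 5.0 and GCOS. The scaling target is not given in the sources used here. With 2% trimmed from both ends, each array's mean was 100.01. Detection calls were not used, and 6 arrays limit the precision. Of 54675 probe sets 41097 had 1 gene symbol in the platform annotation, 1801 several and 11777 none, and those with several or none were not named. Each gene was read from the probe set with the highest mean signal.

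Signals under the floor of 12.9 were raised to it before taking log2, with no further scaling. Genes with a mean above the floor were fitted in limma 3.58.1 (R 4.3.3; lmFit, eBayes with an intensity trend) with siRNA and time as terms, 2 residual and 12.65 prior degrees of freedom, and Benjamini-Hochberg adjustment over all 11921 genes. A second fit added the siRNA difference at 24 h against earlier, with 1 residual degree of freedom. The step was tested on simulated data with 2-fold changes in 200 of 11921 genes. It recovered 84.5% for the siRNA, 77% at 24 h, 64% at 1.5 h and 31% for the added term. In the same order, 17, 5, 8 and 10 unchanged genes were called falsely. Differences between single arrays were counted at 2-fold with no test.

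The 45 genes, their roles, the pathway and marker lists and the tests were chosen with earlier results of these data known. By a rule for named genes all 45 could be named, with signals on every array for each role's 3 largest and 1 smallest 24 h differences, for genes not called at 24 h and for the largest siRNA and time-dependent differences. The signals of PCNA and CDT1's other probe set were added after their values were seen. So were the values by arm on other probe sets of CDT1, CDC6, CDC25A, RFC2, GINS4 and CCNE2. From the pathway lists the 3 largest called differences of each direction were named, and POLD4 was added after its values were seen. The signal of the targeted gene is not reported here, nor are the few genes of the pathway lists that were not tested. Alternatives were other scalings, floors, a pseudocount, other probe set choices, no filter, no trend, pairs or the siControl 0 h array left out, and 1.5 h as reference. The second probe set of each gene and, for the added term, 0 and 1.5 h as 1 level were alternatives chosen after seeing the data. Figures were drawn with matplotlib 3.10.9 in Python 3.11.15.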

Additional observations from a re-analysis of the deposited data

How the results depend on the processing

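The fits compare the arms within each time and the times within each arm. No paired analysis by replicate number was possible because the labels carry none and each group is 1 array. At 24 h 40 of the 45 genes passed. With the second probe set of each gene 17 of the 23 tested passed, all of them lower, and with no filter on dim genes 0 of 45 did. Of 34 tested without _x_at and _s_at probe sets 28 passed. The settings that tested all 45 otherwise gave 28 (without intensity trend) to 43 (0 and 1.5 h as 1 level). Without the siControl 0 h array 36 passed, and ORC6, POLA1, RPA1 and RPA2 did not. RFC5 turned to -0.49 with the mean of probe sets and to -1.04 with the second. The count of 5 for the siRNA was 1 with the mean of probe sets (RRM2) and 1 without _x_at and _s_at probe sets (MCM5). It was 2 with the second probe set (CDC25A and RRM2), 2 without the 1.5 h pair, and 0 with no filter on dim genes, with no intensity trend and without the 24 h pair. Quantile normalization gave 7, with RRM2 and TYMS added. GINS2 turned to 0.10 both without _x_at and _s_at probe sets and with the second probe set, which is dim. Between single arrays, the siControl count of 26 at 24 h was 17 without _x_at and _s_at probe sets and 10 with the second probe set. The siHNF4a count of 32, RFC5 included, was 16 with the second. The siRNA count at 24 h, 1, was 0 with the mean of probe sets, 0 without _x_at and _s_at probe sets and 2 with the second. That at 1.5 h, 0, was 1 with the second. None of the 45 genes passed at 1.5 h or for the siRNA difference at 24 h against earlier under any alternative run. For the latter these included 0 and 1.5 h as 1 level with 2 residual degrees of freedom. There 4 of the 45 and 706 of all 11921 genes had an unadjusted p under 0.05. The siRNA difference at 24 h against earlier could not be fitted without a pair or the siControl 0 h array. No 24 h difference from 0 h exists without the 0 h pair. The fits without the 0 h pair or the siControl 0 h array rest on limma's prior. Except where an alternative tested fewer genes or arrays, the cause was not tested.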
